A study of Mus musculus with 2 samples.

Results

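The ETS factors of mammary epithelium were measured as the RNA of 10 genes in TUBO cells. These were Elf1, Elf2 and Elf4 of the ELF group, Elf3, Elf5 and Ehf of the ESE group with the related Spdef, and Etv1, Etv4 and Etv5 of the PEA3 group. They were taken by gene symbol from a table of 31017 genes, in which all 10 had a row. TUBO is a cloned mouse mammary cancer line, established from a tumour of a BALB/c mouse that carried an activated rat Her2/neu transgene driven by a mammary tumour virus promoter. The cells received no treatment and grew as a flat layer on plastic in medium with serum. Poly(A) RNA of 1 group was sequenced in 2 libraries, replicate 1 and replicate 2, so the results are levels of genes and no condition is compared with another. The labels do not say whether the libraries came from separate cultures, so the spread between them may be technical.

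ETS factors share a DNA-binding domain, the ETS domain, in which the third helix reads a GGAA core in DNA. The ESE group is found mainly in epithelia: Elf5 directs the secretory alveolar lineage of the mouse mammary gland downstream of prolactin, while Elf3 and Ehf act in many epithelial barriers. The PEA3 group is switched on by ERK signalling below receptor tyrosine kinases, and Etv4, also called Pea3, was described as overexpressed in mammary tumours of neu transgenic mice. Elf1 and Elf2 are widely expressed, and Elf4 is best known from blood cells.

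The codons of the DNA-contacting helix are shown because they belong to the domain that all 10 genes share, and because such likeness could blur their read counts. The 39 bases, 13 codons each, were read from the GENCODE M21 transcript with the longest coding sequence of each gene (GRCm38, 5′ to 3′). Capitals mark the 15 bases that are identical in all 10 genes.
Elf1, chr14:79570893-79573187, plus strand: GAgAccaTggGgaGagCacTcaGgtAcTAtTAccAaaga
Elf2, chr3:51257760-51259194, minus strand: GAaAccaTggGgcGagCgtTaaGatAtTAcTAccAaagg
Elf4, chrX:48417009-48417893, minus strand: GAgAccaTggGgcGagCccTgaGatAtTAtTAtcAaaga
Elf3, chr1:135254365-135254947, minus strand: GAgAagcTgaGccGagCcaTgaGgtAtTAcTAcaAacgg
Elf5, chr2:103449078-103449579, plus strand: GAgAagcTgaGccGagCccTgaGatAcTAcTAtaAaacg
Ehf, chr2:103266856-103266989, minus strand: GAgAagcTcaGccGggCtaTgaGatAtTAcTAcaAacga
Spdef, chr17:27714931-27714969, minus strand: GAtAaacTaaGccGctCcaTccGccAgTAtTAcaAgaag
Etv1, chr12:38861335-38861373, plus strand: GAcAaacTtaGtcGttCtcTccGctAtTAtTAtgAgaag
Etv4, chr11:101770984-101771022, minus strand: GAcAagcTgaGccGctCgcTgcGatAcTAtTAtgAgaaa
Etv5, chr16:22386772-22386810, minus strand: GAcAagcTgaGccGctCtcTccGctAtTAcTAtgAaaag
The encoded residues were the same in all 3 ELF genes, in all 3 PEA3 genes, and in Elf3 and Ehf. Elf5 differed from Elf3 and from Ehf in 2 of 13 codons by the residue encoded, and Spdef differed from each PEA3 gene in 3. The stretch was split over 2 exons in the ELF genes, Elf3, Elf5 and Ehf, and lay within 1 exon in Spdef and the PEA3 genes. The spans given above include the intron where there is one. At the level of bases no pair was identical, and the closest pair, Elf3 and Ehf, differed at 5 of 39 positions. The longest exact run shared by transcripts of any pair of the 10 genes was 38 bases, between Elf1 and Elf2.

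Replicate 1 held 35453278 counts and replicate 2 held 34098259. Levels are counts per 1000000 library counts (CPM) after TMM scaling, given as mean ± SD over the 2 libraries. For a gene with no count the limit was set at 3 counts, 0.0842 CPM for replicate 1 and 0.0885 CPM for replicate 2, which is about a one-sided 95% bound for counting error. Detection was set at a minimum of 1 CPM in each library. In bulk RNA, a lower level of a gene in each cell and fewer cells with that gene cannot be told apart. Of the 10 ETS genes 8 were detected, against 37.7% of all genes and 50.5% of protein-coding genes in the table. The median level was 0.073 CPM over all genes and 1.29 CPM over protein-coding genes, and each of the 8 detected ETS genes was above both. The epithelial markers Epcam, Cdh1, Krt7, Krt8 and Krt18 were all detected. None of 7 leukocyte, 4 endothelial and 5 fibroblast markers was, and their summed levels in replicates 1 and 2 were 0.505 and 0.472, 0.281 and 0.265, and 1.04 and 0.531 CPM for the 3 lists. Among these, Ptprc, Cdh5 and Col1a2 had no count.

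**Figure D1:**
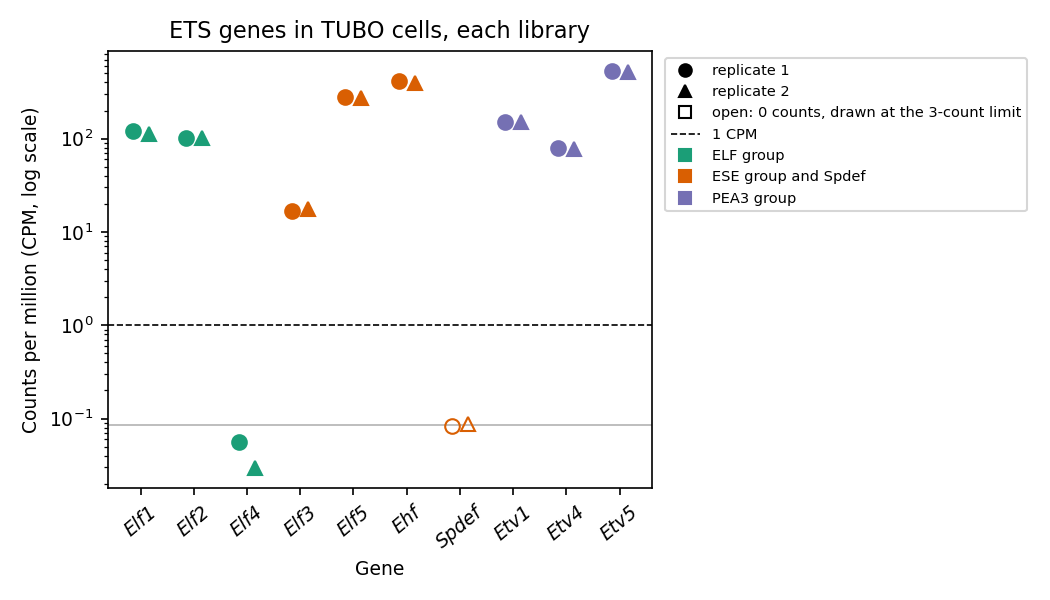
CPM, not divided by length, of each ETS gene (log axis) in replicate 1 (circles) and replicate 2 (triangles), coloured by group; open symbols mark genes with 0 counts, drawn at the 3-count limit. Both libraries lie close together for the 8 detected genes, from Elf3 at 17.3 CPM to Etv5 at 528 CPM, and Elf4 and Spdef lie at or under the limit.

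Within the ESE group, Ehf and Elf5 were abundant and Elf3 was low. Ehf (ENSMUSG00000012350.15, chr2:103263433-103303278, minus strand; positions of genes are from GENCODE M21, GRCm38), an epithelial regulator, had 14633 counts in replicate 1 and 13307 in replicate 2, which is 411 and 392 CPM (401 ± 12.8 CPM). Elf5 (ENSMUSG00000027186.14, chr2:103411688-103450989, plus strand), the alveolar lineage factor, had 9889 and 9278 counts, or 277 and 274 CPM (275 ± 2.73 CPM). Per kilobase of exon, Ehf stood above 95.9% and Elf5 above 92.8% of all detected genes. Elf3 (ENSMUSG00000003051.13, chr1:135253575-135258568, minus strand), an ESE factor of simple and glandular epithelia, had 603 and 601 counts, or 16.9 and 17.7 CPM (17.3 ± 0.568 CPM), and stood above 51.3% of detected genes per kilobase. An antisense gene, Gm26642, overlaps Elf3 on the opposite strand and had 87 and 81 counts. Whether the counting used strand is not given in the sources used here, so the reads of this pair cannot be told apart with certainty.

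Levels of different genes were compared after division by the exonic length of each gene, as CPM per kilobase. On that scale Elf5 was 0.641 times Ehf in replicate 1 and 0.662 times in replicate 2 (0.651 ± 0.0144). Elf3 was 0.162 and 0.172 times Elf5 (0.167 ± 0.00712). Both ratios stayed below 1 in each library, but their SD over the 2 libraries does not cover the choice of length. They moved with the length chosen, since Elf5 was 0.941 times Ehf by the longest transcript, where the libraries of the 2 genes still did not overlap, and Elf3 was 0.0407 times Elf5 by coding length. With 2 libraries an exact test of such a ratio cannot pass 0.05, so no p-value is given.

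Spdef, a factor of luminal and goblet-type secretory cells (ENSMUSG00000024215.14, chr17:27714352-27728955, minus strand), had 0 counts in both libraries. Genes linked to Spdef in the mouse gut and airway were likewise at or near 0. Of 7 such genes, the mucin gene Muc5b was detected, with 48 and 36 counts (1.20 ± 0.202 CPM). The forkhead factor gene Foxa3 had 6 and 17 counts, the folding enzyme gene Agr2 had 1 and 0 counts, and Creb3l1, Tff2 and Clca1 had none. The median of the list was 0.014 CPM, below that of all genes at 0.073 CPM.

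The PEA3 group held the most abundant of the 10 genes per kilobase of exon, Etv5, and all 3 of its genes were detected. Etv5 (ENSMUSG00000013089.15, chr16:22381309-22439719, minus strand), a factor of branching epithelia and stem cells, had 19085 counts in replicate 1 and 17654 in replicate 2, which is 535 and 521 CPM (528 ± 10.5 CPM). Etv1 (ENSMUSG00000004151.17, chr12:38779380-38870484, plus strand), also known as ER81, had 5330 and 5044 counts, or 149.5 and 149 CPM (149 ± 0.571 CPM). Etv4 (ENSMUSG00000017724.14, chr11:101769742-101785371, minus strand), the founding PEA3 factor, had 2855 and 2655 counts, or 80.1 and 78.3 CPM (79.2 ± 1.28 CPM). The level per kilobase was above that of 98% of detected genes for Etv5, 84.6% for Etv4 and 62.7% for Etv1. Within the group, Etv5 was highest at 129 ± 2.57, Etv4 followed at 25.5 ± 0.413, and Etv1 was lowest at 11.2 ± 0.0429 CPM per kilobase. Etv1 has the longest annotated exonic length of the 10 genes, 13296 bases. Etv5 was 5.04 ± 0.0189 times Etv4 and 11.5 ± 0.185 times Etv1. By the longest transcript and by coding length these ratios were 4.02 ± 0.0151 and 6.14 ± 0.0231 for Etv4, and 5.86 ± 0.0944 and 3.20 ± 0.0515 for Etv1. By exonic length Etv5 made up 77.8 ± 0.13% of the summed PEA3 level per kilobase.

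Copies of the PEA3 genes limit how exact these levels are. Of the 50-base windows of Etv5 transcripts, 24.5% were also found in the processed pseudogene Gm4798 (chr10:71704290-71705988, plus strand), and 8.42% of those of Etv1 in the processed pseudogene Gm5454 (chr13:103356252-103357704, plus strand). Neither pseudogene has a row in the table, which holds 32 of the 9941 processed pseudogenes of GENCODE M21. How the counting treated reads with more than one match is not given in the sources used here, so the level of Etv5, and to a lesser extent that of Etv1, is uncertain. The shares were 0.0539% for Ehf and 0.273% for Elf5, and no window of Etv4, Elf4 or Spdef was shared. For Elf1 (5.85%), Elf2 (3.27%) and Elf3 (5.28%) most shared windows fell in genes that overlap them on the opposite strand.

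In the ELF group, Elf1 and Elf2 were both detected and Elf4 was at the floor. Elf1 (ENSMUSG00000036461.16, chr14:79481194-79582494, plus strand), a widely expressed factor that binds the retinoblastoma protein, had 4322 counts in replicate 1 and 3811 in replicate 2, which is 121 and 112 CPM (117 ± 6.28 CPM). Elf2 (ENSMUSG00000037174.18, chr3:51252720-51340663, minus strand), a partner of RUNX1, had 3620 and 3438 counts, or 102 and 101 CPM (101 ± 0.132 CPM). Per kilobase, Elf1 stood at 17.3 ± 0.932 and Elf2 at 10.6 ± 0.0138, a ratio of 1.63 ± 0.0857 that was 1.12 ± 0.0585 by coding length. Elf1 was above 75.7% and Elf2 above 61% of detected genes by exonic length. Elf4 (ENSMUSG00000031103.12, chrX:48411046-48463132, minus strand), a regulator of lymphoid cells and of quiescence, had 2 counts and 1 count. Its two-sided exact 95% interval for counting error was 0.00679 to 0.203 CPM in replicate 1, and 0.000747 to 0.164 CPM in replicate 2. Elf4 and Spdef, both at or under the 3-count limit, were not told apart in level.

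Taking the 10 genes together, the order per kilobase of exon was Etv5, Ehf, Elf5, Etv4, Elf1, Etv1, Elf2 and Elf3, and no neighbours in this order overlapped between libraries. The smallest step was from Etv1 to Elf2, a ratio of 1.06 ± 0.00267 in favour of Etv1, and the others lay between 1.36 and 1.84. The PEA3 genes made up 51.7 ± 0.103% of the summed level per kilobase, the ESE genes 39.6 ± 0.0169% and the ELF genes 8.73 ± 0.12%. Etv5, Ehf and Elf5 alone made up 40.2 ± 0.0127%, 22.5 ± 0.264% and 14.6 ± 0.151%. The summed ESE level was 0.766 ± 0.0012 times the PEA3 level by exonic length, and this comparison turned with the length used. It was 0.968 by the longest transcript and 1.67 by coding length, so which of the 2 groups was higher is not settled by these data. By coding length Ehf (446 ± 14.3 CPM per kilobase) and Elf5 (363 ± 3.60) also passed Etv5 (333 ± 6.65). Etv1 (104 ± 0.399), Elf1 (63.6 ± 3.42) and Elf2 (57 ± 0.0744) then lay above Etv4 (54.3 ± 0.879), and Etv1 passed Elf1. Elf3 was the lowest of the 8 detected genes under all 3 lengths.

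**Figure D2:**
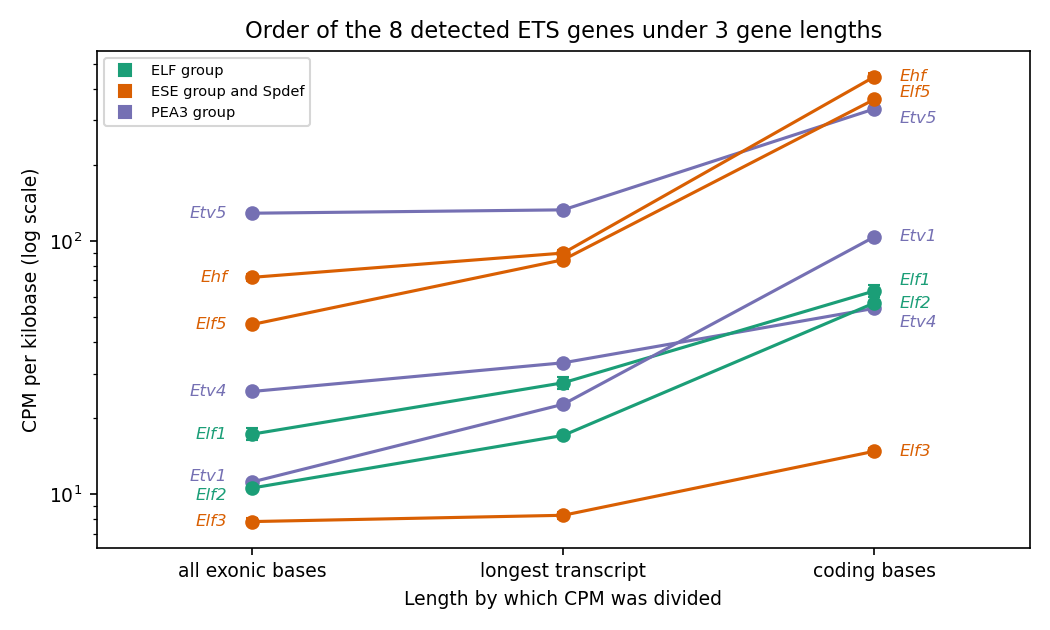
CPM per kilobase (log axis; points are means and bars SD over the 2 libraries) of the 8 detected ETS genes, divided by all exonic bases, by the longest transcript or by the coding bases. Etv5 leads under the first 2 lengths and Ehf under coding length, while Elf3 is lowest under each.

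Gene starts are shown for both ends of the range of levels. The windows below reach from 250 bases before to 50 after the first listed start of Etv5, the highest gene per kilobase, and of Spdef, which had no count. They come from RefSeq (GRCm38.p6), which matched 8 of the 10 genes, all but Ehf and Etv4, and capitals mark CpG dinucleotides.
Etv5, chr16:22439521-22439820, minus strand: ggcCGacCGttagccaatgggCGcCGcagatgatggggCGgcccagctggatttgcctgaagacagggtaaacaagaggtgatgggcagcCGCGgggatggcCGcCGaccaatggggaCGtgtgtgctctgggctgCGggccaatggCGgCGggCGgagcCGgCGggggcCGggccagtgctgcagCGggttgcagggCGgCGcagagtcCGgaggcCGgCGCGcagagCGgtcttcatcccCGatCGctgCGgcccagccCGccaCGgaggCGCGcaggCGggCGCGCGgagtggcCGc
Spdef, chr17:27728902-27729201, minus strand: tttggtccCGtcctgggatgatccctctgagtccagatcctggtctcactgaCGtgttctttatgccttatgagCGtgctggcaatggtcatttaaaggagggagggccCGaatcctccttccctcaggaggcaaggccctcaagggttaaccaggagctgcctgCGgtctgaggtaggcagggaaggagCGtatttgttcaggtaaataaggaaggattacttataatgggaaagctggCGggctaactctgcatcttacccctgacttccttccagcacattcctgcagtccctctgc
The printed Etv5 window held 37 CpG and that of Spdef 7, the median of all 32851 windows, and 5.58% and 52.1% of all windows held as many or more. A high level did not always go with a CpG-rich window: those of Elf5 held 3 and 10. Those of Elf1 held 43 and 3, those of Elf2 held 42 and 31, and those of Elf4, at the floor, held 14 and 29. The windows of Etv1 held 12 and 3, and the window of Elf3 held 12. For the abundant Ehf and for Etv4 there was no window to count. The ETS core GGAA, counted on both strands as GGAA or TTCC, occurred 0 times in the printed Etv5 window and 7 times in that of Spdef. The window of the second Etv5 start, 22438319 to 22438618 on the same strand, held 6 such cores and 19 CpG, so the contrast with Spdef in cores belongs to the first start. The core occurred at least once in 96.0% of all windows, with a median of 3. These are counts of letters in a window and do not show binding.

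The other 16 ETS genes show what the family as a whole looked like. Of these 9 were detected, against 50.5% of all protein-coding genes in the table, with a median of 10.9 CPM over the 16. Per kilobase the highest was Etv6, a transcriptional repressor, at 36.6 ± 0.618, between Elf5 and Etv4. Ets2, a target of ERK signalling, stood at 19.8 ± 0.870, Gabpa, an activator of housekeeping and mitochondrial genes, at 19.4 ± 0.554, and the ERK-controlled repressor gene Erf at 18.5 ± 0.804. By exonic length Elf1 lay just below these, and its libraries overlapped those of Erf. Elk4, a partner of serum response factor, reached 16.0 ± 0.847. The place of Elf1 turned with the length. By the longest transcript Elf1 (27.6 ± 1.48) was above Gabpa (22.2 ± 0.631), Erf (19 ± 0.827) and Elk4 (23.1 ± 1.22). By coding length Elf1 (63.6 ± 3.42) was above Erf (40.4 ± 1.75) but below Gabpa (81.1 ± 2.31) and Elk4 (79.3 ± 4.21). Etv3 (4.75 ± 0.11), Elk1 (4.54 ± 0.0840) and Elk3 (3.82 ± 0.219) lay below Elf3 by exonic length. Ets1, a factor of lymphoid and endothelial cells, was detected with 173 and 142 counts (4.52 ± 0.471 CPM). Per kilobase Ets1 stood at 0.533 ± 0.0556 CPM. By coding length, Elf3 was 0.466 ± 0.00454 times Etv3 and 0.778 ± 0.0111 times Elk1, so its place above these genes turned with the length. Elf3 over Elk3 was 2.01 ± 0.0494 by the longest transcript and 1.04 ± 0.0257 by coding length. The blood cell factor genes Spib (10 and 15 counts) and Spi1 (4 and 2 counts) were below 1 CPM, and Erg and Fli1, which mark endothelial and blood cells, had no count. Together the 10 genes made up 72.1 ± 0.149% of the summed level per kilobase of all 26 ETS genes.

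**Figure D3:**
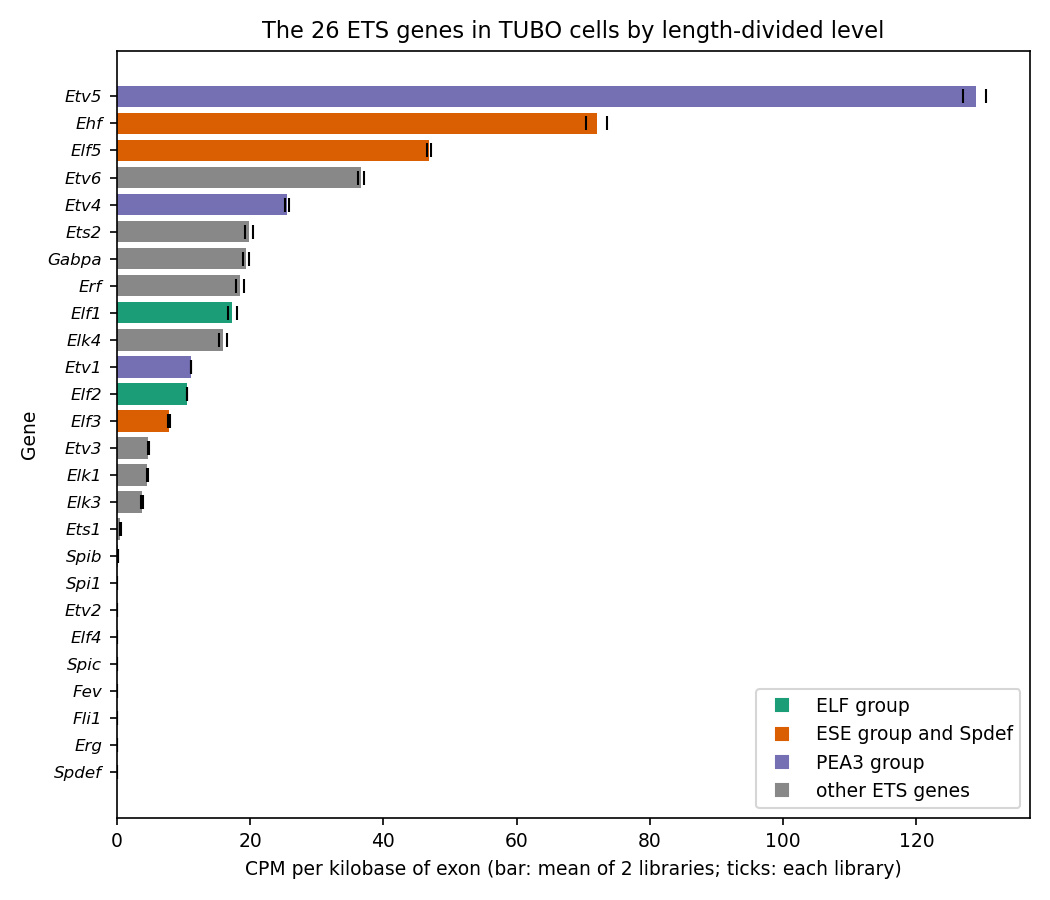
Levels of the 26 ETS genes in CPM per kilobase of exon, highest at the top; bars are means of the 2 libraries, ticks the single libraries, and colours the groups. Etv5, Ehf and Elf5 lead, Etv6 is the first gene from outside the 10, and genes from Ets1 down lie near 0, though Ets1 was detected.

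Ehf and Elf5 are neighbours on chromosome 2, transcribed away from each other with 108409 bases between their spans and no other protein-coding gene of the table in that interval. The catalase gene Cat, 2859 bases past the end of Elf5, stood at 57.6 ± 0.738 CPM per kilobase, between Ehf (72.0 ± 2.30) and Elf5 (46.9 ± 0.465). Elf5 was 0.814 ± 0.00236 times Cat on this scale, but 1.47 ± 0.00425 times by the longest transcript and 3.82 ± 0.011 times by coding length, so which of these neighbours was higher turned with the length, while Ehf was above Cat under all 3 lengths. The next genes outward were lower. The methionine salvage gene Apip was at 16.9 ± 2.02, the pyruvate dehydrogenase component gene Pdhx at 8 ± 0.375 and Abtb2 at 7.72 ± 0.309 CPM per kilobase. Around the other members the picture differed from gene to gene. Of the 4 nearest protein-coding genes, 2 on each side, none was detected around Etv1, 1 around Etv4 and 2 around Etv5. All of them lay below the PEA3 gene per kilobase of exon, the only length used for this comparison. Those of Etv1 lie up to 1197178 bases away. Around Elf1 and Elf2, 3 of 4 lay below the member on the same scale, and around Elf3 1 of 4. Around Spdef 3 of 4 were detected, and around Elf4 likewise 3 of 4.

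**Figure D4:**
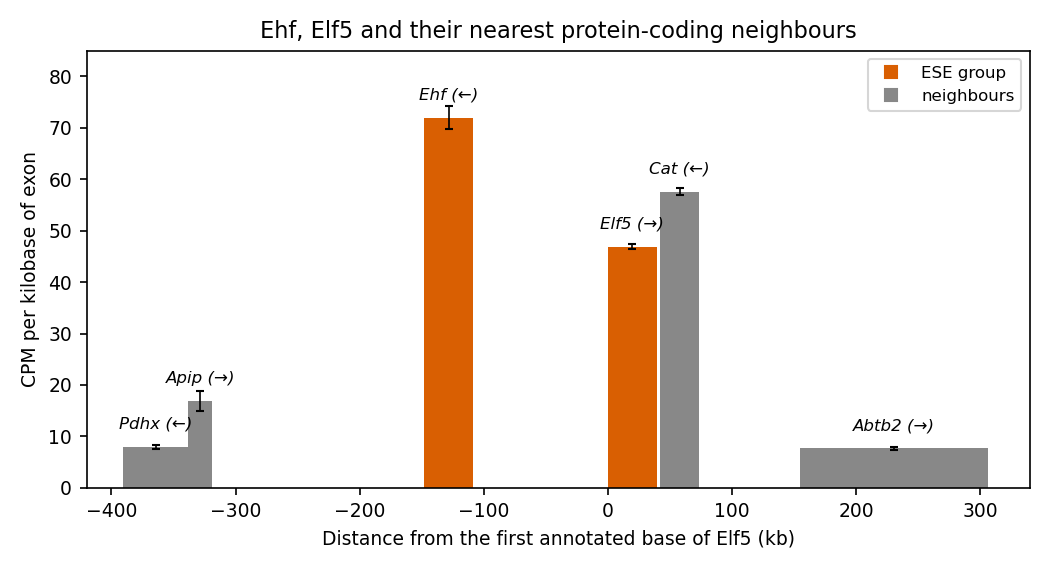
Ehf and Elf5 (orange) with their nearest protein-coding neighbours (grey), drawn by distance from the first annotated base of Elf5 in kilobases and by level in CPM per kilobase of exon; error bars are SD over the 2 libraries and arrows give the direction of transcription. Ehf, Elf5 and Cat stand at 72.0, 46.9 and 57.6, above Pdhx, Apip and Abtb2; by the longest transcript or coding length Elf5 was above Cat.

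Genes that act on the ETS factors were detected broadly. All 6 genes of the prolactin path that leads to Elf5 were detected, with a median of 69.8 CPM. The STAT5 feedback inhibitor gene Socs2 was highest at 58.8 ± 0.585 CPM per kilobase, the kinase gene Jak2 stood at 15 ± 0.199 and Stat5b at 11.6 ± 0.0628, and the lowest were the receptor gene Prlr (7.36 ± 0.106) and the inhibitor gene Cish (0.906 ± 0.0635). The places of Prlr and Jak2 turned with the length: by coding length Prlr was second to Socs2, at 61.9 ± 0.895 CPM per kilobase. Jak2 (22.2 ± 0.295) was then below Stat5b (27.2 ± 0.148) and Stat5a (26.3 ± 0.309). None of 4 milk protein genes linked to Elf5 was detected. Wap, a whey protein gene whose promoter Elf5 binds in the mouse, had 3 and 5 counts, Csn1s1 and Lalba had 1 and 0 each, and Csn2 had none. The 4 genes together summed to 0.140 and 0.147 CPM.

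All 10 genes of the ERK cascade and all 10 genes of the complexes that restrain PEA3 factors were detected, with medians of 91.7 and 93.5 CPM. The share to set beside these and the next counts is again 50.5% of protein-coding genes. The kinase gene Mapk3 was highest in the cascade at 76.2 ± 3.99 CPM per kilobase, the Ras gene Nras stood at 27.1 ± 0.390, and the kinase gene Braf was lowest at 3.83 ± 0.292. By coding length Nras was highest, at 255 ± 3.67, and Braf again lowest, at 22.0 ± 1.68 CPM per kilobase. Among the restraining genes, the ubiquitin ligase adaptor gene Ddb1 (146 ± 2.56), Cul4b (25.1 ± 0.697) and Dda1 (22.3 ± 0.0481) were highest by exonic length. Cop1, whose product marks PEA3 proteins for degradation, stood at 5.12 ± 0.0954, and its partner gene Det1 was lowest at 3.11 ± 0.168 CPM per kilobase. By coding length Det1 was again lowest, whereas Cop1 stood at 40.8 ± 0.760, above Atxn1, Cul4b and Cic. Partners and cofactors of ETS proteins were detected in 7 of 7 cases, from Cbfb (33.7 ± 0.227), Crebbp (14.1 ± 0.582) and Ep300 (13.8 ± 0.521) down to Rb1 (8.12 ± 0.286) and Skp2 (3.91 ± 0.130) by exonic length, and from Cbfb (209 ± 1.41) down to Rb1 (17.7 ± 0.622) by coding length. Of 8 genes linked to PEA3 factors in kidney or mammary cells 4 were detected, about the share of all protein-coding genes in the table (50.5%). The hepatocyte growth factor receptor gene Met (30.9 ± 0.444), the chemokine receptor gene Cxcr4 (10.4 ± 0.670) and the membrane protease gene Mmp14 (9.04 ± 0.542 CPM per kilobase) led by exonic length, and Mmp9 and Ret had no count. By coding length Met (57.3 ± 0.825) again led, but Mmp14 (30.9 ± 1.85) was above Cxcr4 (17.4 ± 1.12), as it was by the longest transcript.

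The 2 libraries gave nearly the same levels for the ETS genes. Of the 10 genes 8 passed the filter on low counts and were tested, and Elf4 and Spdef did not. A two-sided exact binomial test compared the 2 libraries, covering counting error only, and was adjusted over 13336 genes by Benjamini-Hochberg. It called Elf1 (log2 ratio of replicate 1 over replicate 2 of 0.11, adjusted p = 0.0124) and Ehf (0.07, adjusted p = 0.00415), both higher in replicate 1. These are 2 of 8 genes, where the test called 8.13% of all tested genes, and 4.46% as higher in replicate 1. In all 595 genes were higher and 489 lower in replicate 1, and with total counts as the scale that split was 921 against 374. Etv5 (0.04) had an adjusted p = 0.0718 in the exact test and was called under that scale (0.06, adjusted p = 0.00391; 9.71% of genes called) and with DESeq2 size factors (0.05, adjusted p = 0.0298; 8.62% called). The other 5 genes had log2 ratios between -0.07 for Elf3 and 0.03 for Etv4 and were not called. When the spread of the same libraries was allowed for, neither edgeR's exact test nor the test with DESeq2 dispersions called any ETS gene. They called 19 (0.142%) and 0 of all tested genes, with 736 and 0 genes at an unadjusted p under 0.05. Both took their dispersion from the same 2 libraries that they compared. The DESeq2 dispersions were fitted for each gene, so the difference under test enters them. Their lack of calls for ETS genes therefore cannot bear on the calls of the binomial test. edgeR's exact test used a common dispersion over all tested genes, a coefficient of variation of 3.12%. It thus sets each gene against the typical spread between these libraries. Against that spread, Elf1 (unadjusted p = 0.125) and Ehf (unadjusted p = 0.324) did not stand out in edgeR's exact test. Of the pathway genes above, the binomial test called Ddb1, Atxn1l and Mapk3 as higher in replicate 1 and Braf, Ep300 and Crebbp as lower. These were 2 of 10 restraining genes, 2 of 10 genes of the ERK cascade and 2 of 7 partners and cofactors. Among the 9 tested other ETS genes the test called Elk4 as lower. The share over all tested genes was 8.13%. Atxn1l, a partner of the repressor Cic, is named because it was called. Among the 5 epithelial markers, Cdh1 (log2 ratio 0.08, adjusted p = 5.08e-09), Krt7 (0.08, adjusted p = 8.23e-09) and Krt8 (0.06, adjusted p = 0.000824) were called higher in replicate 1 by the same exact test, the direction of Ehf and Elf1, and their part in that difference was not tested. No tested gene of the prolactin path or of the PEA3-linked list was called. The median log2 ratio was 0.027 over the 8 genes and 0.002 over all tested genes.

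**Figure D5:**
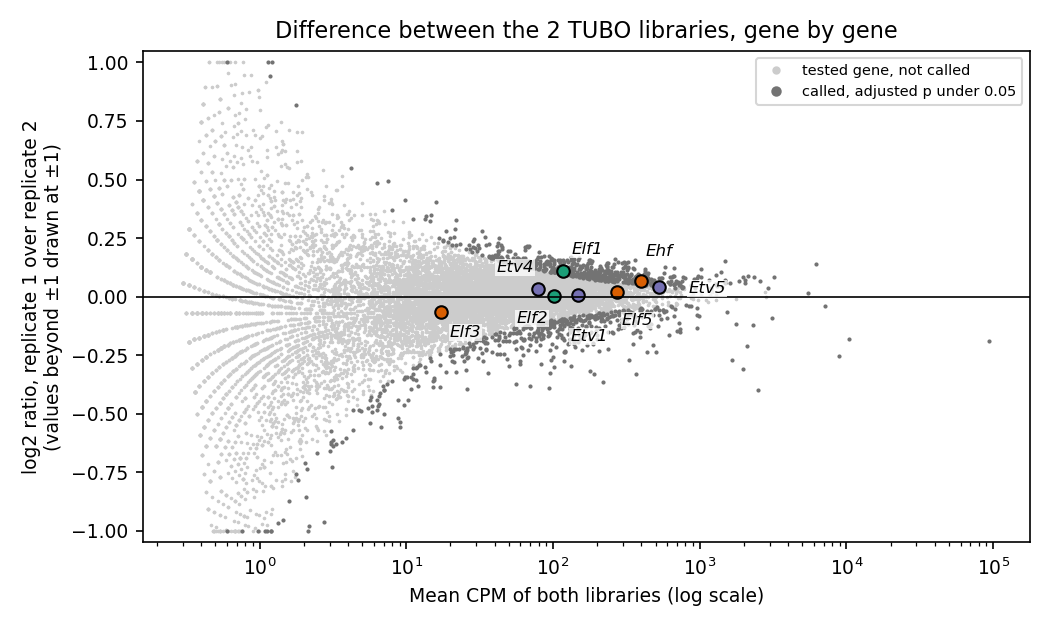
Log2 ratio of replicate 1 over replicate 2 against mean CPM (log axis) for the 13336 tested genes; light points were not called, dark points had an adjusted p under 0.05, and coloured points are the 8 tested ETS genes (green ELF, orange ESE, violet PEA3). Elf1 at 0.11 and Ehf at 0.07 lie among the called genes, and the 8 genes all lie between -0.07 and 0.11.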

How the data were processed

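Per the labels' protocols, RNA from TUBO cells was column-purified with DNase treatment and made into stranded mRNA libraries. The table deposited by the authors gives unnormalized read counts by gene symbol. Named in the submitters' processing notes, without roles, are the build mm10, STAR 2.7.9a, FastQC 0.11.9, Cell Ranger 3.0.0, featureCounts and R 4.1.1. What the sources used here do not give is the annotation, the strand setting and the treatment of multi-matching reads.

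Columns were assigned to samples by the library name in the labels. Counts (35453278 and 34098259 in all) became CPM through TMM factors, 1.005 and 0.9946 (edgeR 4.0.16, R 4.3.3) and divided by merged exonic length from GENCODE M21 (GRCm38), where 98.3% of symbols had 1 match. mm10 and GRCm38 share coordinates. For tests between libraries, filterByExpr kept 13336 genes with 99.95% of counts. Shared sequence was found by looking up 50-base windows of transcripts on both strands. Log2 ratios used a prior count of 0.5.

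The members and lists were chosen with earlier results of these data known. The lists' named genes are their 3 highest and 2 lowest members, ranked per kilobase, apart from some that are not reported here; Atxn1l was named after its values were seen. With 2 libraries of 1 group, no gene could be named for likeness of pattern. Alternatives were other scalings, detection minimums, filters, gene lengths and tests and each library left out. Totals without Gm26917 and Gm42418, and orders and ratios of genes under other lengths, were added after seeing the data. DESeq2 1.42.0 gave size factors and dispersions.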

Additional observations from a re-analysis of the deposited data

How the results depend on the processing

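The number of detected ETS genes was 8 at every minimum from 0.5 to 10 CPM, under every scaling and without either library. By the length chosen, the ESE level over the PEA3 level, 0.766 by exonic length, was 0.918 without division, 0.968 by the longest transcript and 1.67 by coding length. Elf5 over Ehf was 0.687, 0.941 and 0.814 under these 3 settings, and Elf3 over Elf5 was 0.0629, 0.0979 and 0.0407. Without each replicate these ratios ranged from 0.765 to 0.767, from 0.641 to 0.662 and from 0.162 to 0.172. The exact binomial test called 1084 genes, 2 of them ETS genes, and 972 to 1295 genes under other scalings or no filter, with 2 or 3 ETS genes. edgeR's exact test with a dispersion from the same libraries called 19 genes, and that with DESeq2 dispersions called 0; both called 0 ETS genes. At an unadjusted p under 0.05 there were 2649 genes in the binomial test, 736 in edgeR's exact test and 0 with DESeq2 dispersions. The binomial test covers counting error only. The other 2 tests take their dispersion from the same libraries that they compare. With DESeq2 dispersions, fitted for each gene, few or no calls follow by construction. edgeR's exact test used a common dispersion over all tested genes, so it sets each gene against the typical spread between the libraries. Without the rRNA-related genes Gm26917 and Gm42418 the totals were 31964135 and 30310404 for replicates 1 and 2, against 35453278 and 34098259 with them. Leaving them out moved the CPM of all 8 detected ETS genes by more than 1 SD, Etv5 from 528 to 589.8 CPM. No paired analysis was possible because there is only 1 group. No sample could be left out of the tests between libraries, which need both. Depth limits Elf4 and Spdef alone among the 10 genes.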
